A study of Mus musculus with 6 samples.

Results

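The genes described here are 10 genes of mitochondrial fatty acid oxidation, chosen by symbol: Cpt1a, Cpt2, Acadm, Acadl, Acadvl, Hadha, Hadhb, Acaa2, Etfdh and the nuclear receptor gene Ppara. They and the related lists were chosen with earlier results of these data known. All 10 were found among the 55802 genes of the expression tables, and all 10 were among the 12994 genes tested. The 6 libraries came from primary neural stem cells of the subventricular zone (SVZ), the stem cell region beside the lateral ventricles, taken from adult C57BL/6 mice. The SETD4 OE group (n = 3) had received ADV-SETD4-GFP, an adenoviral vector that expresses SETD4 together with a fluorescent reporter (GFP), and carries the SETD4 overexpression label. The control group (n = 3) had received ADV-GFP, which carries the reporter alone, and is labelled WT. Both groups therefore carried adenovirus and GFP, both have 24 h given for the treatment, and both were grown in a Neurobasal-type medium with 2% B27. SETD4 belongs to the SET domain family, whose members methylate lysines. The labels give neither the promoter that drove SETD4, nor the age of the mice, nor whether the 3 libraries of a group came from separate animals or cultures. The p-values therefore measure the spread between these libraries, which may be technical.

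Mitochondrial fatty acid oxidation cuts long-chain acyl-CoA into acetyl-CoA. Carnitine palmitoyltransferases pass the acyl group through the mitochondrial membranes, acyl-CoA dehydrogenases make the opening oxidation of each cycle, the trifunctional protein and thiolases complete it, and the electrons reach ubiquinone through the electron transfer flavoprotein (ETF) and its oxidoreductase. PPARα, the product of Ppara, is a nuclear receptor that binds fatty acids and, with RXR, activates many of these genes in liver, heart and other tissues. In mice, adult neural stem cells and astrocytes are known to oxidise fatty acids, and Cpt1a-dependent oxidation has been linked to the quiescent state of neural stem cells.

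Promoter sequences of 9 members were taken from RefSeq (GRCm38.p6; Acaa2 was not matched), from 250 bases before to 50 after the start. The 4 shown cover the 250 bases before the start, 5′ to 3′ on the gene's strand. Hadhb is shown because Hadha starts on the other strand 273 bases away, so that this region lies between the starts of both subunits of the trifunctional protein; capitals mark the GC box GGGCGG. Etfdh, which passed the test, and Ppara, which did not pass the test, are shown because both hold the palindromic NRF1 motif, in capitals. Acadvl is shown for the single nuclear receptor site AGGTCA, in capitals.
Hadhb, chr5:30155003-30155252, plus strand: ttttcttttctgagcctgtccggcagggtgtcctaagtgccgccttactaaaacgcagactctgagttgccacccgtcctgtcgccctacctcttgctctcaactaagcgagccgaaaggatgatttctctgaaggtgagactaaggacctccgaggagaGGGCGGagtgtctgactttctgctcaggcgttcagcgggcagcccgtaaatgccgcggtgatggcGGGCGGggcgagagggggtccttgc
Etfdh, chr3:79628768-79629017, minus strand: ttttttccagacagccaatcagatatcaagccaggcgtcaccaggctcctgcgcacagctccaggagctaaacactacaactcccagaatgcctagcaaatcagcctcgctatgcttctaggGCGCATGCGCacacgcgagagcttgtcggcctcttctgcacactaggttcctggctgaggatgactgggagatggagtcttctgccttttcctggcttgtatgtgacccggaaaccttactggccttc
Ppara, chr15:85735526-85735775, plus strand: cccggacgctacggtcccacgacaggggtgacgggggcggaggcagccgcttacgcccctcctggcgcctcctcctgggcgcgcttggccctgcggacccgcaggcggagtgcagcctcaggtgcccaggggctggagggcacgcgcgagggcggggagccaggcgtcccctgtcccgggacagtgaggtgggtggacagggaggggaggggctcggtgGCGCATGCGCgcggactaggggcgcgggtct
Acadvl, chr11:70015429-70015678, minus strand: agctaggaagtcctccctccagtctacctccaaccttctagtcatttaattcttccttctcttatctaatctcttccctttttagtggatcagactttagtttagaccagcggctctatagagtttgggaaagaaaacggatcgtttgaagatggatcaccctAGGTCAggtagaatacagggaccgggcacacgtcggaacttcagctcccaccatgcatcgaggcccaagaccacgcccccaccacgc

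Both strands of these windows were searched for 8 motifs. The direct repeat bound by PPAR with RXR (AGGTCA repeated after 1 free base) was in none of the 9 member windows and in 0.0396% of the 32851 windows in the RefSeq table. Its unit AGGTCA, which is also part of the ERR element, was in 3 of 9 (Cpt1a, Acadm, Acadvl) and in 16.3% of all windows. The ERR element TCAAGGTCA was in 0 of 9 and in 0.423% of all, the E box CACGTG in 0 of 9 and in 7.15%, and the cyclic AMP element TGACGTCA in 0 of 9 and in 1.79%. NRF1 matches were in 2 of 9 and in 4.60% of all windows, CCAAT in 2 of 9 and in 37.4%, and GGGCGG in 7 of 9 and in 35.7%. The Hadha and Hadhb windows overlap, and the GGGCGG match of Hadha is the same site as one of those of Hadhb. A match is a description of the letters and not a bound site.

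As a check of the labels, Setd4 held 296, 346 and 333 FPKM in the SETD4 OE libraries, against 0.952, 0.972 and 1.53 FPKM in the control libraries (FPKM, reads scaled to gene length and library size, as deposited; viral and endogenous Setd4 reads are not separated). Whole reads could be recovered from the FPKM values, and their totals ran from 14924273 to 16045138 in SETD4 OE and from 16007182 to 18078717 in control. The 9 members other than Ppara rested on 647 to 6342 reads per library, and Ppara on 65 to 87. Mitochondrially encoded genes held 3.52% to 3.73% of the reads in SETD4 OE, against 3.78%, 2.45% and 2.45% in control replicates 1, 2 and 3; without control replicate 1, 7 members passed, as with it.

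Most members were modestly higher in SETD4 OE. Of the 10 genes 7 rose and 0 fell (limma on log2(FPKM + 1), Benjamini-Hochberg adjusted p under 0.05 over all tested genes), and the 7 means were 18.3% to 42.5% above control. Of all tested genes 60.0% passed, 26.0% higher and 33.9% lower. All 3 SETD4 OE values lay above all 3 control values for the same 7 members, and this was so for 29.1% of tested genes; for 36.9% of tested genes, and 0 members, they lay below. The median log2 fold change of the members was 0.25, beside -0.06 over all tested genes. Because the members were chosen with earlier results of these data known, these contrasts are descriptive only. Cpt2, Acadm and Ppara did not pass. Since these are bulk libraries, a change in the share of a cell type and a change in RNA per cell cannot be told apart.

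**Figure D1:**
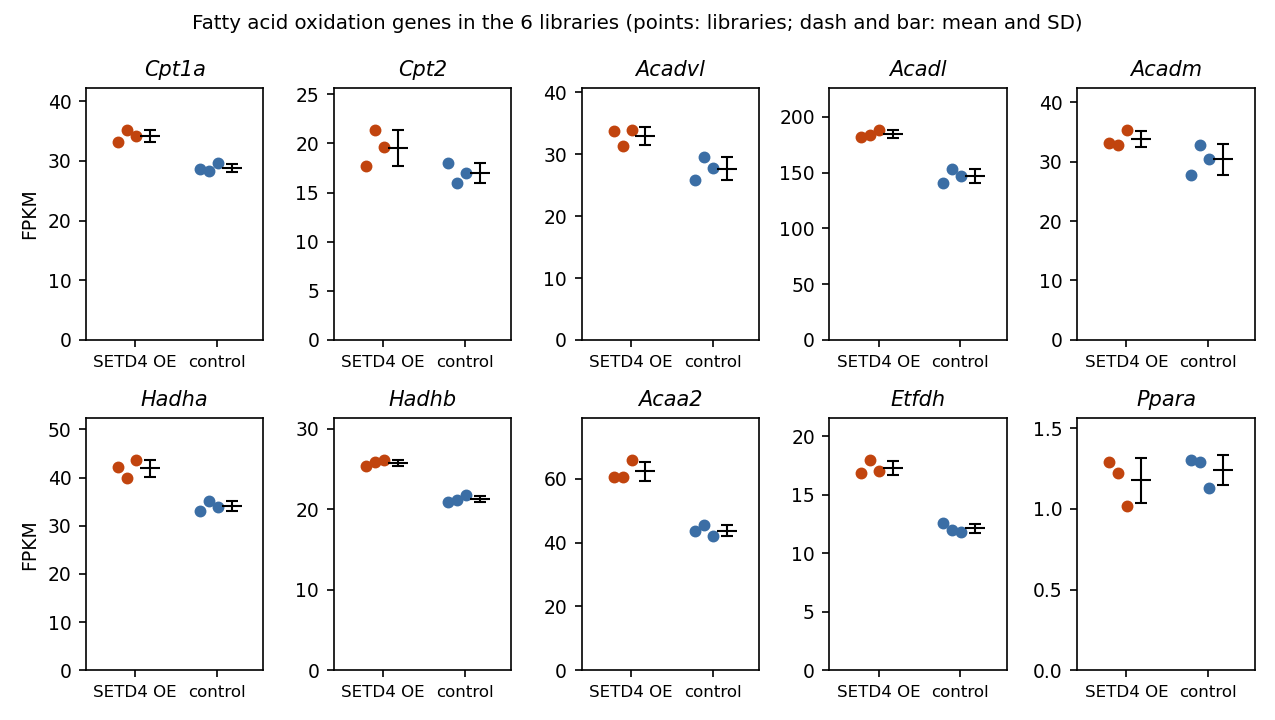
FPKM of the 10 members in each library (linear axes from 0, 1 panel per gene), with SETD4 OE on the left and control on the right, the mean and the SD (n = 3 each). Cpt1a, Acadvl, Acadl, Hadha, Hadhb, Acaa2 and Etfdh show 2 separate groups of points, and Cpt2, Acadm and Ppara overlap.

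The carnitine shuttle was represented by Cpt1a and Cpt2. Cpt1a (ENSMUSG00000024900; mm39 chromosome 19, 3372334 to 3435733) encodes the outer-membrane transferase that forms acylcarnitine and is inhibited by malonyl-CoA. It had 33.1, 35.2 and 34.1 FPKM in SETD4 OE, against 28.6, 28.4 and 29.6 FPKM in control. The groups were apart (log2 fold change 0.24, SE 0.05, limma adjusted p = 0.00592). Cpt2 (ENSMUSG00000028607; chromosome 4, 107761178 to 107780807), the inner-membrane enzyme that restores acyl-CoA in the matrix, had 17.7, 21.4 and 19.6 FPKM in SETD4 OE, against 18.0, 15.9 and 17.0 FPKM in control. SETD4 OE replicate 1 lay below control replicate 1, and Cpt2 did not pass (log2 fold change 0.19, 95% interval 0.00034 to 0.38, adjusted p = 0.0772, limma). The ratio of Cpt1a to Cpt2 FPKM was 1.75 ± 0.112 in SETD4 OE and 1.70 ± 0.103 in control (SD, n = 3 each; exact permutation test, two-sided, p = 0.70, where 0.10 is the smallest possible).

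The acyl-CoA dehydrogenases differ in the chain length they prefer. Acadl (ENSMUSG00000026003; chromosome 1, 66869998 to 66902436), the long-chain enzyme, had 182, 184 and 188 FPKM in SETD4 OE, against 141, 153 and 147 FPKM in control. It was the most abundant member and made up 40.5% to 40.9% of the summed FPKM of the 10 members in SETD4 OE, against 39.9% to 40.9% in control. All SETD4 OE values lay above all control values (log2 fold change 0.33, SE 0.06, adjusted p = 0.00253, limma). Acadvl (ENSMUSG00000018574; chromosome 11, 69901009 to 69906237), the very-long-chain enzyme of the inner membrane, had 33.7, 31.3 and 33.9 FPKM in SETD4 OE, against 25.8, 29.5 and 27.8 FPKM in control. The groups did not overlap, with a log2 fold change of 0.24 (SE 0.07, adjusted p = 0.0165, limma). That call was lost without SETD4 OE replicate 1 (adjusted p = 0.0587), SETD4 OE replicate 3 (0.0557) or control replicate 3 (0.050), and over all alternatives its adjusted p ranged from 0.000592 to 0.0587. Acadvl also shares 2119 bases with Dvl2 on the other strand, at 5.90 ± 0.278 FPKM in SETD4 OE and 4.75 ± 0.353 FPKM in control, and no strand setting is given. Acadm (ENSMUSG00000062908; chromosome 3, 153627994 to 153650269), the medium-chain enzyme, had 33.1, 32.8 and 35.3 FPKM in SETD4 OE, against 27.7, 32.9 and 30.5 FPKM in control. Control replicate 2 lay above SETD4 OE replicate 2, and Acadm did not pass (log2 fold change 0.15, 95% interval -0.02 to 0.32, adjusted p = 0.112, limma).

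The trifunctional protein carries out the later steps for long chains. Hadha (ENSMUSG00000025745; chromosome 5, 30323302 to 30360160, minus strand) encodes its alpha subunit, with hydratase and 3-hydroxyacyl-CoA dehydrogenase activity, and Hadhb (ENSMUSG00000059447; chromosome 5, 30360246 to 30389591, plus strand) its thiolase subunit. Hadha had 42.2, 40.0 and 43.6 FPKM in SETD4 OE, against 33.2, 35.2 and 33.8 FPKM in control. Hadhb had 25.3, 25.8 and 26.1 FPKM in SETD4 OE, against 20.9, 21.2 and 21.7 FPKM in control. For both genes the groups were apart. Hadha had a log2 fold change of 0.29 (SE 0.06, limma adjusted p = 0.00339) and Hadhb one of 0.26 (SE 0.05, limma adjusted p = 0.00254). The genes are divergent, with 85 bases between them in the deposited mm39 annotation, and the ratio of Hadha to Hadhb FPKM was 1.63 ± 0.0685 in SETD4 OE and 1.60 ± 0.0536 in control (SD, n = 3 each; exact permutation test, two-sided, p = 0.70, where 0.10 is the smallest possible). Hadha also shares 75 bases with Garem2 on the other strand, and no strand setting is given. Garem2 was at 38.3 ± 1.61 FPKM in SETD4 OE and 45.7 ± 1.40 FPKM in control. Acaa2 (ENSMUSG00000036880; chromosome 18, 74912268 to 74939279), the mitochondrial thiolase for shorter chains, had 60.6, 60.7 and 65.9 FPKM in SETD4 OE, against 43.6, 45.7 and 42.2 FPKM in control. Every SETD4 OE library was well above every control library, and its log2 fold change of 0.50 was the highest of the members (SE 0.06, adjusted p = 0.000357, limma).

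Etfdh (ENSMUSG00000027809; chromosome 3, 79511095 to 79536807) encodes the ETF oxidoreductase, which passes electrons from the acyl-CoA dehydrogenases to ubiquinone. It had 16.90, 17.96 and 17.08 FPKM in SETD4 OE, against 12.59, 11.98 and 11.86 FPKM in control. The groups were far apart relative to their spread (log2 fold change 0.48, SE 0.05, adjusted p = 0.000250, limma), and the mean was 42.5% higher. Its gene model shares 422 bases with 4930579G24Rik on the other strand, at 1.45 ± 0.358 FPKM in SETD4 OE and 2.52 ± 0.567 FPKM in control. Etfa and Etfb, which encode the subunits of the flavoprotein itself, did not pass as deposited. Etfa had 54.3, 56.0 and 55.5 FPKM in SETD4 OE, against 55.0, 60.8 and 55.3 FPKM in control (log2 fold change -0.04, SE 0.06, adjusted p = 0.554, limma). Over the 16 alternatives its log2 fold change ran from -0.07 to 0.15 and was above 0 in 7; with quantile normalization Etfa passed as higher (adjusted p = 0.0322, in a range of 0.0322 to 0.967). Etfb had 4.95, 3.59 and 5.52 FPKM in SETD4 OE, against 2.25, 9.28 and 6.59 FPKM in control, a spread wider than the group difference (log2 fold change -0.17, SE 0.39, adjusted p = 0.729, limma). Without control replicate 1 Etfb passed, at -0.65 (adjusted p = 0.022, in a range of 0.022 to 0.968 over the alternatives).

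Ppara (ENSMUSG00000022383; chromosome 15, 85619184 to 85687020) was the least abundant member. It had 1.29, 1.22 and 1.02 FPKM in SETD4 OE, against 1.30, 1.29 and 1.13 FPKM in control. The groups overlapped, and Ppara did not pass (log2 fold change -0.04, 95% interval -0.28 to 0.19, adjusted p = 0.726, limma).

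The deposited scaling bears on these modest changes. The recovered totals differed from the library size implied by the deposited values by -5.04% to -3.69% in SETD4 OE and by 0.634% to 2.75% in control. In 6 fits with other scaling (quantile or upper-quartile normalization, median-of-ratios size factors, equal totals, totals that omit mitochondrial and the 10 most abundant genes, and limma-voom on recovered reads) 9 of 10 members rose and 0 fell. In the same fits 28.6% (quantile) to 33.9% (upper-quartile) of all tested genes were called higher. The additional members were Cpt2, with adjusted p-values from 0.0142 to 0.0298 in those fits, and Acadm, from 0.00248 to 0.0250, where their ranges over all 16 alternatives were 0.0142 to 0.213 and 0.00248 to 0.275. Upper-quartile scaling raised the typical gene by 0.13 on the log2 scale and turned the split of all called genes from 3384 higher and 4406 lower to 4405 higher and 3259 lower. Relative to the median of all tested genes, the members' median was 0.31 higher as deposited, and 0.24 (no filter on low values) to 0.43 (quantile normalization) higher over the alternatives.

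**Figure D2:**
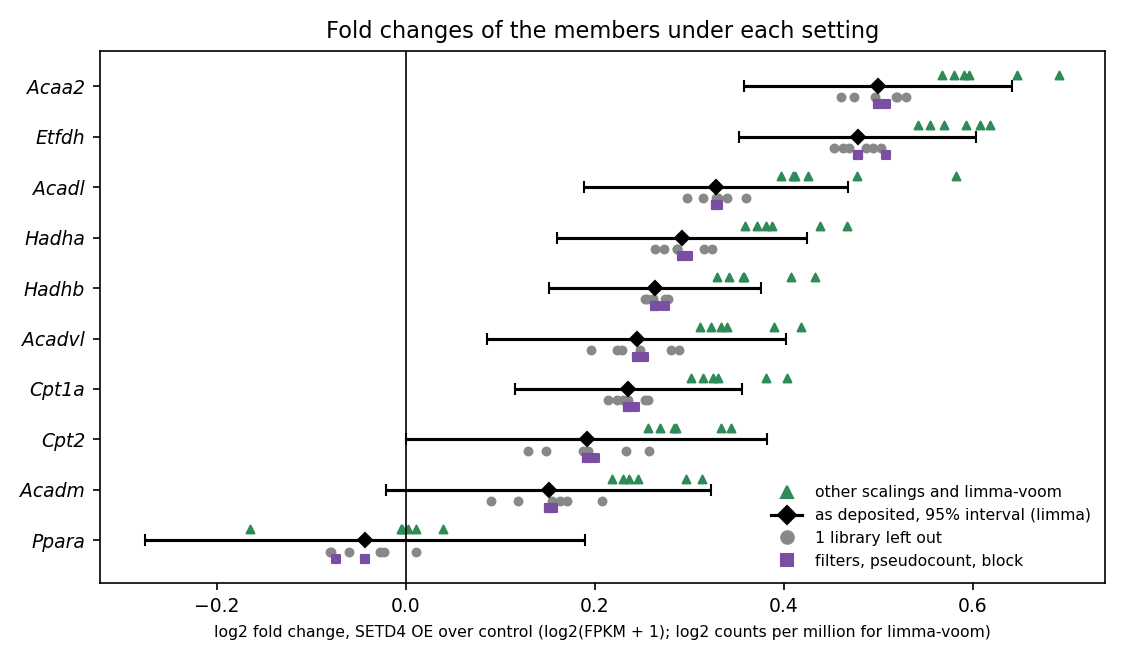
Log2 fold changes (SETD4 OE over control) of the 10 members as deposited, with their 95% interval from limma, and under 16 alternatives (15 for Ppara, which is not tested at a mean of at least 5 FPKM). Green triangles, the other scalings and limma-voom, lie to the right of the deposited value for 9 members; Ppara lies on both sides of 0.

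In level, Acadl led in both groups, followed by Acaa2 and Hadha, and these 3 had ranges apart from their neighbours in the order. Mean FPKM (per kilobase of the deposited gene length) was 185 in SETD4 OE and 147 in control for Acadl, and 62.4 in SETD4 OE and 43.8 in control for Acaa2. Cpt1a, Acadm and Acadvl, at 33.0 to 34.1 FPKM in SETD4 OE and 27.7 to 30.4 FPKM in control, overlapped with each other. Hadhb, Cpt2, Etfdh and Ppara followed, and of these Cpt2 and Etfdh overlapped in SETD4 OE but not in control. Together the 10 members summed to 454 ± 9.95 FPKM in SETD4 OE and 363 ± 11.6 FPKM in control, and without Acadl to 269 ± 6.74 FPKM in SETD4 OE and 216 ± 5.15 FPKM in control (SD, n = 3 each).

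This order depends on the gene length used. The deposited length of Hadhb is 6595 bases and that of Etfdh 7505 bases, 3.22 and 3.16 times the length of their principal GENCODE transcripts (2048 and 2377 bases), while for Acaa2 both lengths are 1516 bases. Per kilobase of principal transcript, Hadha came to 91.1 in SETD4 OE and 74.0 in control, and Hadhb to 82.9 in SETD4 OE and 68.5 in control, which placed them next after Acadl. The ratio of Hadha to Hadhb was then 1.10 in SETD4 OE and 1.08 in control. All reads of a gene were assigned to its principal transcript, including any outside its exons, so these levels may be too high and the ratios uncertain. Fold changes between the groups are not touched by the length, apart from the pseudocount.

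**Figure D3:**
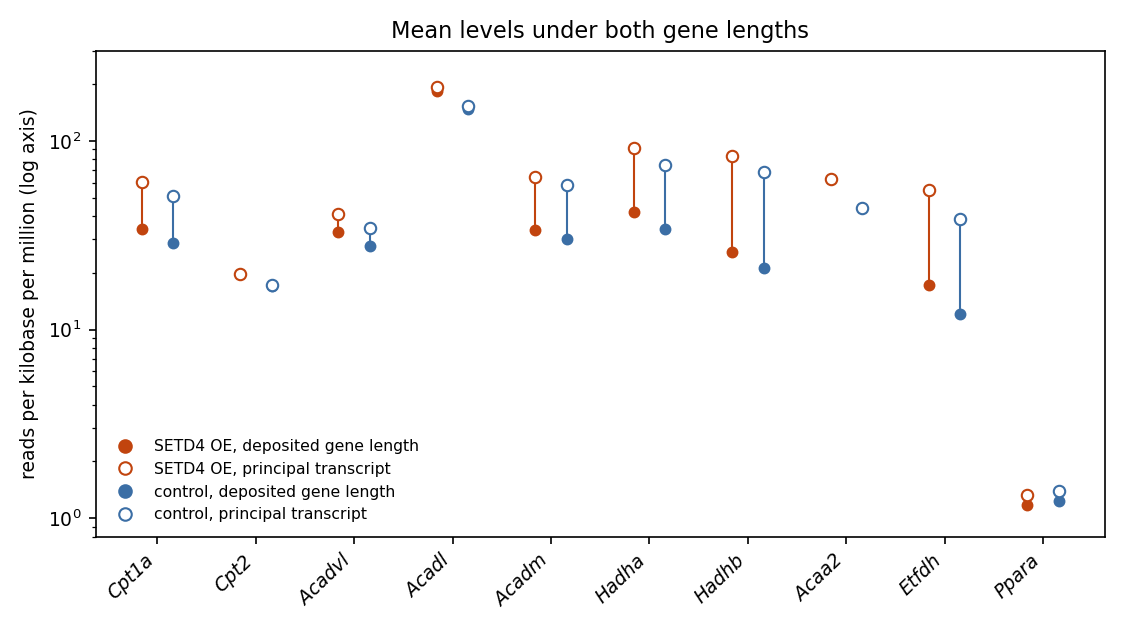
Mean level of each member (log axis) per kilobase of the deposited gene length (filled) and of the principal GENCODE transcript (open), SETD4 OE left and control right. Hadha, Hadhb and Etfdh move up by more than 2-fold, and Cpt2 and Acaa2 hardly move.

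Of 83 other genes of fatty acid use in 8 lists, 71 were tested. Of these 33 rose and 9 fell, and the median log2 fold change was 0.20. Over all tested genes 26.0% rose and 33.9% fell, with a median of -0.06. Among 9 tested genes of acyl-CoA activation and the shuttle, 4 rose and 2 fell. Acsl3, an acyl-CoA synthetase, had 46.1, 46.8 and 43.7 FPKM in SETD4 OE, against 20.3, 18.2 and 19.4 FPKM in control (log2 fold change 1.20). Its relative Acsl6 rose by 0.81 on the log2 scale, while Acsl4 fell by 0.81. Slc25a20, the carnitine-acylcarnitine translocase between Cpt1a and Cpt2, was at 13.1 ± 0.526 FPKM in SETD4 OE and 13.0 ± 1.35 FPKM in control and did not pass (adjusted p = 0.946, limma). The other CPT1 isoforms, named after their values were seen, were Cpt1c, the neuronal form, which rose (18.1 ± 0.773 FPKM in SETD4 OE, 14.7 ± 0.296 FPKM in control), and Cpt1b, the muscle form, below the filter at 0.196 ± 0.0952 FPKM in SETD4 OE and 0.0901 ± 0.0378 FPKM in control.

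Among 14 other genes listed under mitochondrial beta-oxidation 5 rose and 0 fell (3 rose without SETD4 OE replicate 1, and 2 fell without control replicate 1). Their median log2 fold change was 0.05. Over all tested genes 26.0% rose and 33.9% fell. The listing does not exclude that some of the products also act in peroxisomes. The calls of Decr1 and Acad10 were lost in 6 of 16 and 2 of 15 alternatives. The largest changes in this list were those of Eci2, an enoyl-CoA isomerase (log2 fold change 0.76), Ech1, a dienoyl-CoA isomerase (0.68), and Acad11, an acyl-CoA dehydrogenase (0.54). Eci2 had 32.2, 31.9 and 32.4 FPKM in SETD4 OE, against 18.5, 18.9 and 18.4 FPKM in control, a clear separation. The matrix enzymes for short chains did not pass as deposited. Acads, the short-chain dehydrogenase, had a log2 fold change of 0.13 (adjusted p = 0.189, limma; 0.00753 to 0.50 over the alternatives, past the threshold in 5 of 16), Echs1, the short-chain hydratase, of -0.02 (adjusted p = 0.779) and Hadh, the short-chain 3-hydroxyacyl-CoA dehydrogenase, of -0.15 (adjusted p = 0.0578). Of 13 tested peroxisomal genes 7 rose and 0 fell (1 fell without control replicate 1). Over the alternatives 5 (of 8 tested at a mean of at least 5 FPKM) to 10 (upper-quartile scaling and limma-voom) rose. The call of Hsd17b4 was lost in 5 of 16 alternatives. Abcd2, a transporter of very-long-chain acyl-CoA, rose by 1.10 on the log2 scale, Acox3 by 0.71 and the carrier Scp2 by 0.64.

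**Figure D4:**
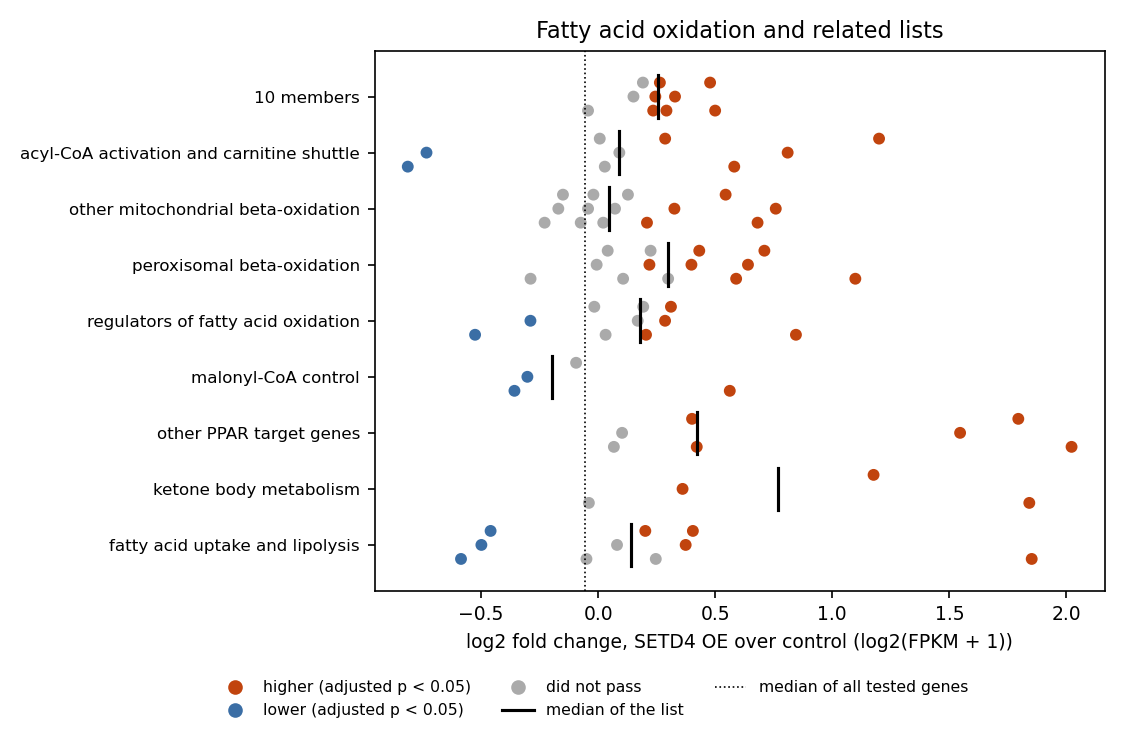
Log2 fold changes (SETD4 OE over control) of tested genes of the 10 members and of 8 related lists, coloured by call, with the median of each list and of all tested genes (dotted). The members sit between -0.04 and 0.50, and Pdk4, Mgll, Ucp2 and Angptl4 are among the points beyond 1.5.

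Regulators went both ways, with 4 of 10 tested genes higher and 2 lower (26.0% and 33.9% of all tested genes). Ppard, the widely expressed PPAR, had 5.56, 5.10 and 5.63 FPKM in SETD4 OE, against 4.33, 5.02 and 4.42 FPKM in control (log2 fold change 0.20, adjusted p = 0.0424, limma; 0.00443 to 0.126 over the alternatives). Pparg, the adipogenic PPAR, was below the filter at 0.509 ± 0.0507 FPKM in SETD4 OE and 0.748 ± 0.0643 FPKM in control. The coactivator gene Ppargc1a was at 15.0 ± 1.41 FPKM in SETD4 OE and 11.9 ± 1.56 FPKM in control (log2 fold change 0.31, adjusted p = 0.0335, limma; 0.00312 to 0.101 over the alternatives). Lpin1, a phosphatidate phosphatase and coactivator, rose by 0.84, and Esrra, the nuclear receptor ERRα, fell by 0.53 on the log2 scale. The most abundant regulator, the corepressor gene Ncor1, did not pass (0.03). The regulator counts rested on single libraries: 1 rose and 1 fell without SETD4 OE replicate 1 or control replicate 3, and 2 rose and 1 fell without SETD4 OE replicate 3 or control replicate 1.

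Malonyl-CoA, the product of acetyl-CoA carboxylase, inhibits CPT1. Of 4 tested genes of its control 2 fell and 1 rose (33.9% and 26.0% of all tested genes). Acaca, the main carboxylase gene, had 4.74, 4.42 and 4.59 FPKM in SETD4 OE, against 6.50, 5.80 and 6.18 FPKM in control, and fell by 0.36 on the log2 scale (adjusted p = 0.00219, limma). Fasn, the fatty acid synthase gene, was at 55.1 ± 1.29 FPKM in SETD4 OE and 68.2 ± 0.0850 FPKM in control and fell by 0.30, a call that quantile normalization ended (adjusted p = 0.117, in a range of 0.00137 to 0.117 over the alternatives). Acacb, the mitochondria-bound carboxylase, was below the filter, and Mlycd, malonyl-CoA decarboxylase, did not pass (-0.09). Thrsp, a regulator of lipogenesis known from quiescent mouse neural stem cells, rose to 45.0, 44.7 and 49.6 FPKM in SETD4 OE, against 28.7, 34.0 and 30.7 FPKM in control (log2 fold change 0.56).

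Among genes known as PPAR targets in other tissues, Pdk4, Ucp2 and Angptl4 had the largest changes. Ppara itself did not pass, and a link to these genes was not tested. Of 12 target genes listed 7 were tested, 5 rose and 0 fell, where 26.0% of all tested genes rose and 33.9% fell. Plin2 and Acot1 did not pass as deposited, but passed in 6 and 2 of 16 alternatives. Pdk4, a kinase that shuts off pyruvate dehydrogenase, had 15.3, 15.8 and 14.4 FPKM in SETD4 OE, against 2.92, 2.96 and 3.06 FPKM in control (log2 fold change 2.02). Angptl4, a secreted inhibitor of lipoprotein lipase, was at 2.92 ± 0.381 FPKM in SETD4 OE and 0.342 ± 0.108 FPKM in control (1.55, and 3.19 with limma-voom). With a control mean below 1 FPKM, Angptl4 met the filter only through its SETD4 OE values. The uncoupling protein gene Ucp2 was at 9.10 ± 0.736 FPKM in SETD4 OE and 1.91 ± 0.144 FPKM in control (1.79). Acot13, a thioesterase and the most abundant tested gene of the list, rose by 0.42. The other call was Acot2, which is nearly identical to Acot1, so that its counts are uncertain; the call was lost without SETD4 OE replicate 1, SETD4 OE replicate 3, control replicate 1 or control replicate 2 and with no filter on low values (adjusted p from 0.00222 to 0.10 over the alternatives), which left 4 calls in the list. Several of these are regulated by other factors too, and Fgf21, Cyp4a10, Ucp3, Creb3l3 and Vnn1 stayed below the filter, a mean of 1 FPKM over the 6 libraries.

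Of 4 ketone body genes 3 rose and 0 fell, where 26.0% of all tested genes rose and 33.9% fell. Bdh1, which interconverts the ketone bodies, was at 37.0 ± 1.06 FPKM in SETD4 OE and 15.8 ± 0.866 FPKM in control (1.18). Oxct1, which activates acetoacetate for use, was at 96.5 ± 5.51 FPKM in SETD4 OE and 74.9 ± 1.25 FPKM in control (0.36). In uptake and lipolysis 4 of 10 tested genes rose and 3 fell, beside the same 26.0% and 33.9% of all tested genes. The call of Pnpla2, higher as deposited, was lost without SETD4 OE replicate 2 or control replicate 3 (limma adjusted p up to 0.0637). Mgll, monoacylglycerol lipase, had 170, 161 and 182 FPKM in SETD4 OE, against 45.9, 46.2 and 47.5 FPKM in control (1.85). Lpl, lipoprotein lipase, fell by 0.59, and the binding protein genes Fabp5 and Fabp7 fell by 0.50 and 0.46; with no filter on low values Fabp7 no longer passed (adjusted p = 0.111, in a range of 0.000115 to 0.111 over the alternatives).

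**Figure D5:**
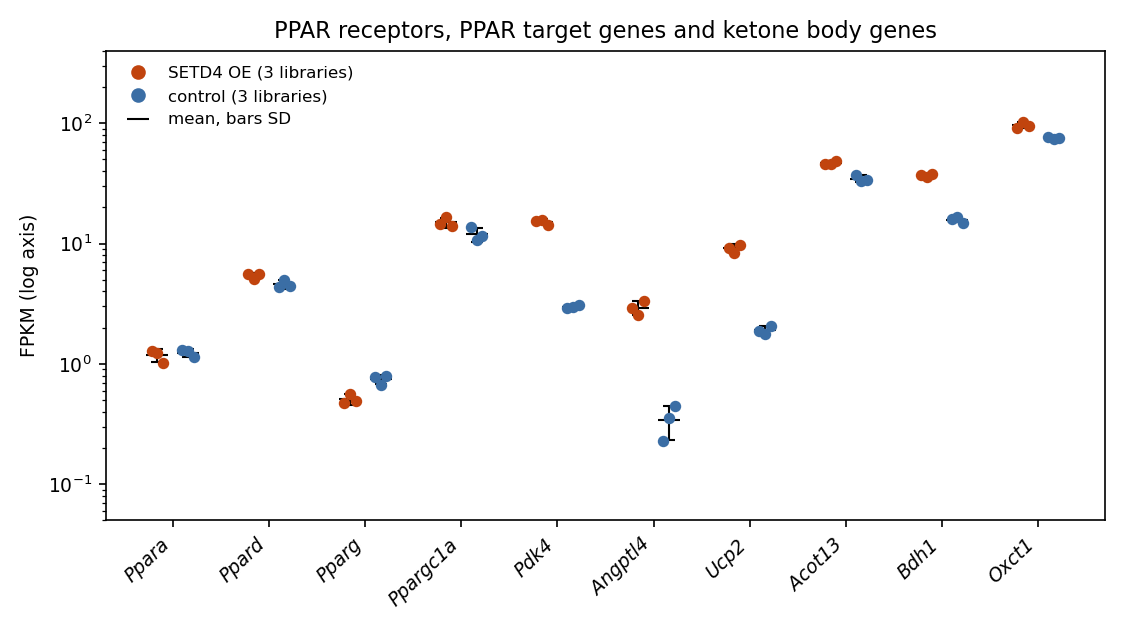
FPKM (log axis) in each library of PPAR receptor genes, Ppargc1a, PPAR target genes and ketone body genes, SETD4 OE left and control right, with mean and SD (n = 3 each). The PPAR target and ketone body genes shown are among those called higher. Ppara overlaps between the groups, while Pdk4, Angptl4, Ucp2 and Bdh1 do not.

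Markers of several cell states moved with the members, and their part in these results was not tested. Over all tested genes 26.0% rose and 33.9% fell. Of 10 astrocyte and quiescent stem cell markers 9 rose and 0 fell, and their summed level ran from 2435 to 2514 FPKM in SETD4 OE and from 882 to 926 FPKM in control. All 8 cycling markers fell (summed level 91.2 to 92.6 FPKM in SETD4 OE and 524 to 553 FPKM in control). Of 5 tested ependymal markers 5 rose (52.9 to 71.0 FPKM in SETD4 OE and 21.5 to 26.4 FPKM in control). The call of the ependymal marker Tmem212 was lost in 5 of the 14 alternatives where it was tested (limma adjusted p from 0.0253 to 0.128). Oligodendrocyte lineage markers were 5 higher and 2 lower of 7 tested, with sums of 714 to 769 FPKM in SETD4 OE and 1154 to 1290 FPKM in control. Neuronal markers were 1 higher and 1 lower of 3 tested, at 39.8 to 46.6 FPKM in SETD4 OE and 42.2 to 45.1 FPKM in control. Microglial and macrophage markers summed to 4.36 to 5.83 FPKM in SETD4 OE and 6.52 to 10.2 FPKM in control, with Aif1, Ptprc and Itgam at or near 0 in all libraries, and endothelial markers to 1.33 to 1.60 FPKM in SETD4 OE and 3.94 to 4.32 FPKM in control, with Cldn5 at 0. Markers of adipocytes, hepatocytes and muscle, tissues rich in these enzymes, summed to 1.21 to 1.47 FPKM in SETD4 OE and 0.139 to 0.556 FPKM in control.

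By Pearson correlation of log2(FPKM + 1) over the 6 libraries, among genes averaging 5 FPKM or more, the profiles most like that of Acaa2 were 1810058I24Rik (r = 0.9996), Tcta (0.9989) and Mfap2 (0.9988). Those most like Ppara were Ubxn8 (0.945), Mcts1 (0.917) and Tdrd7 (0.906). These values describe 6 libraries in 2 groups, and a shared group difference alone gives a high correlation.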

How the data were processed

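RNA-seq expression was compared between 3 SETD4 OE and 3 control libraries. Per the submitters' processing notes, HISAT2 2.0.5 was used with mm39. How reads were counted, on which annotation and with which strand setting is not given in the sources used here. For each group the authors deposited an FPKM table that also holds coordinates and lengths of genes. After multiplying by length, 100% of values above 0 came out as whole reads (tolerance 0.05 reads). Chi-square per degree of freedom over these reads ran from 3.89 to 16.3 for libraries of 1 group, above sampling noise, and from 92.8 to 121 across groups.

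Genes averaging 1 FPKM or more were tested with limma 3.58.1 (R 4.3.3) on log2(FPKM + 1), with a mean-variance trend, two-sided and with no replicate block; this scale understates changes of low genes. The Benjamini-Hochberg adjustment ran over all 12994 tested genes with a threshold of 0.05. Ratios were compared by exact permutation tests (scipy 1.17.1), and the limma step was tested on simulated data. Intervals are limma's 95%.

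The members, lists and named genes were chosen with earlier results of these data known. Named were all members, 14 fixed genes, and from each list up to 3 called genes with the largest change and its most abundant gene; some of these are not reported here. Transcript lengths came from GENCODE M21 (GRCm38), promoters from RefSeq, and figures from matplotlib 3.10.9. Alternatives were a pseudocount of 0.1, other filters, other scalings, limma-voom, the replicate block and leaving out each library. Principal transcript lengths were chosen after seeing the data.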

Additional observations from a re-analysis of the deposited data

How the results depend on the processing

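Over 16 alternatives, 6 to 9 members rose and 0 fell, with 6 to 8 higher when 1 library was left out. Of the members 10 were tested, or 9 at a mean of at least 5 FPKM, where Ppara is not tested. Of all tested genes 12.9% (no filter on low values) to 33.9% (upper-quartile scaling) were called higher in these fits. Of the related genes 25 to 42 rose and 7 to 11 fell (27 to 31 and 8 to 11 when 1 library was left out). Of these genes 71 were tested, but 83 with no filter on low values (28 rose, 7 fell) and 55 at a mean of at least 5 FPKM (25 rose, 7 fell). Cpt1a, Acadl, Hadha, Hadhb, Acaa2 and Etfdh passed in all 16. Setd4 ran from 7.19 to 8.26 on the log2 scale (7.19 to 7.37 when 1 library was left out). The replicate numbers are no evidence of pairing: the deviations of same-numbered libraries correlated at -0.07, -0.23 and 0.08. With the replicate number as a block 6 members, 30 related genes higher and 8 lower, and 6941 genes in all were called, Acadvl no longer passed (adjusted p = 0.0567), and of the regulators 1 rose and 1 fell. Acadm passed without control replicate 2 (0.0458) and Cpt2 without SETD4 OE replicate 1 (0.0364). Ppara, never past the threshold, changed sign to 0.0017 with equal sums, 0.039 with upper-quartile scaling, 0.011 without mitochondrial and the 10 most abundant genes, and 0.011 without SETD4 OE replicate 3 (-0.080 to 0.011 when 1 library was left out); the cause was not tested. The log2 difference of the Cpt1a to Cpt2 ratio between groups was 0.041, and -0.0091 to 0.084 when 1 library was left out, below 0 without SETD4 OE replicate 1 or control replicate 1. That of Hadha to Hadhb was 0.024, and 0.0049 to 0.060. Ppara rested on 65 to 87 reads per library, and its SE was 0.18 with a pseudocount of 0.1, against 0.10 with 1.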
